A study of Rattus norvegicus with 9 samples.

Results

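Cells hold on to collagen and to the proteins bound to it through 2 kinds of surface receptor, the integrins and the discoidin domain receptors. The 10 genes described here are Itga1, Itga2, Itga10, Itga11, Itga5 and Itgav, which encode integrin alpha subunits, Itgb1 and Itgb5, which encode beta subunits, and Ddr1 and Ddr2, which encode the discoidin domain receptors. They were chosen by gene symbol, with earlier results of these data known, and all 10 were found among the 23768 genes of the count table. RNA of the tibia of male Sprague Dawley rats was sequenced in 9 libraries of 3 groups. Replicates 1, 2 and 5 make up the group Model, while GelMA and PMLGH each hold the replicates 2, 3 and 4. The design text of the study describes the GelMA and PMLGH groups as treated, and its title names a peptide that simulates lysyl oxidase, the enzyme that cross-links collagen, and bone healing in diabetes. The name GelMA usually stands for gelatin methacryloyl, a hydrogel made from gelatin, which is itself denatured collagen. The labels give no age, no time of sampling, no description of the Model group and no expansion of PMLGH, and they do not say whether each library is a separate animal, so that p-values measure the spread between these libraries, which may be technical in part.

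An integrin is a pair of 1 alpha and 1 beta subunit that joins the matrix outside the cell to the actin skeleton inside. The alpha subunits encoded by Itga1, Itga2, Itga10 and Itga11 carry an inserted domain that grips triple-helical collagen, and each of them pairs with the product of Itgb1. Itga5, also a partner of Itgb1, forms the main fibronectin receptor, and Itgav with Itgb5 forms a vitronectin receptor, so that Itga5, Itgav and Itgb5 are matrix receptors that do not belong to the collagen-binding integrins in the strict sense. Ddr1 and Ddr2 are tyrosine kinases that fibrillar collagen switches on. Ddr2 is the form of mesenchymal cells and is needed for normal growth of the long bones.

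Total counts ran from 34571478 to 37166383 per library. Every member passed the filter on low counts, with 304 counts or more in each library. All 8 osteoblast markers checked, such as Bglap and Sp7, were detected in every library. Markers of skeletal muscle, red cells and white cells were detected as well, so these are mixed tissues in which more cells of a type and more RNA per cell cannot be told apart. Gene by gene, Model 2 differed more from Model 1 and Model 5 (chi-square per gene of 33.0 and 27.7 on average) than those 2 did from each other (15.7). The labels name no batch, and treatment cannot be told apart from any batch that runs along the groups.

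Relative to Model, 9 of the 10 receptor genes rose in PMLGH and 8 rose in GelMA, and none fell. Among all 16816 genes tested, 15.7% rose and 11.9% fell in PMLGH, and 12.7% rose and 9.88% fell in GelMA. The libraries of 9 members lay above those of Model without overlap in either group, where 21.1% (PMLGH) and 19.8% (GelMA) of all genes did so. The median log2 fold change of the 10 members was 0.39 in PMLGH against Model, where the median of all genes was 0.02. It was 0.31 in GelMA against Model, where the median of all genes was 0.03. Both comparisons use the same 3 Model libraries. The members were chosen with earlier results of these data known, so the shares of all genes describe and do not test the set. PMLGH against GelMA gave 2 members that rose and none that fell, where 1.8% of all genes rose and 1.64% fell, and a median of 0.08 for the members against 0.0028 for all genes. Calls rest on an edgeR quasi-likelihood test with adjusted p under 0.05 over all genes tested, and levels are CPM, counts scaled to a library total that TMM adjusts, as mean ± SD over n = 3 libraries. No member was lower at an unadjusted p under 0.05 in edgeR, or by an adjusted p in DESeq2, in any of the 3 comparisons (0 of 10 in each).

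**Figure D1:**
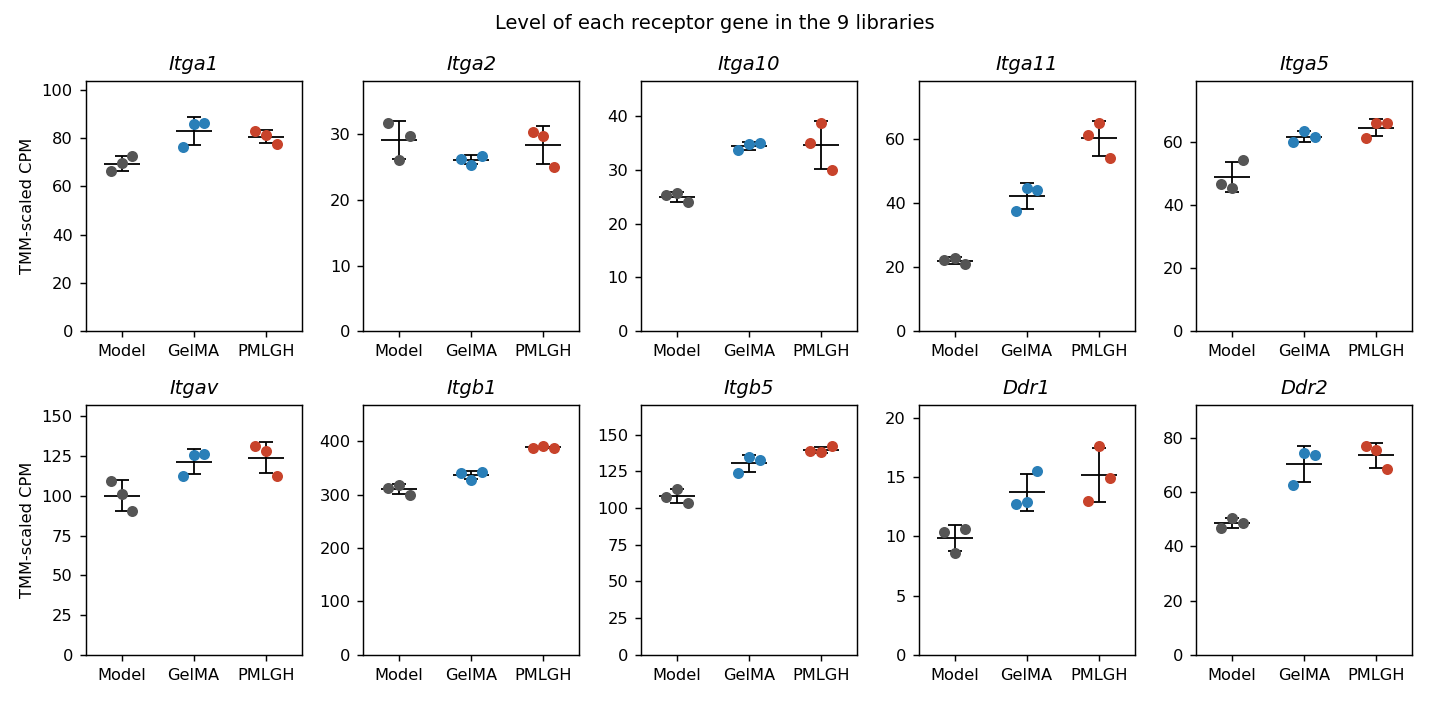
Level of each of the 10 receptor genes in TMM-scaled CPM (vertical axes, each from 0) in the 3 libraries of each group; points are libraries, bars the mean ± SD. Itga11 shows 3 separate steps (20.8 to 22.9, 37.4 to 44.8 and 54.1 to 65.1 CPM), Itgb1 is set apart in PMLGH, and Itga2 lies at about the same level in all groups.

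Itga11, the collagen receptor subunit of fibroblasts and other mesenchymal cells with a preference for fibrillar collagens, changed most. It was at 22.3, 22.9 and 20.8 CPM in Model 1, 2 and 5, at 37.4, 44.8 and 44.3 CPM in GelMA 2, 3 and 4, and at 61.4, 65.1 and 54.1 CPM in PMLGH 2, 3 and 4. The 3 groups formed separate ranges in the order Model, GelMA, PMLGH. Itga11 was 2.74-fold higher in PMLGH than in Model (log2 fold change 1.45 ± 0.09, the ± being an approximate SE, edgeR adjusted p = 1.9e-08) and 1.92-fold higher in GelMA than in Model (0.94 ± 0.09, adjusted p = 3.1e-06). It was also 1.43-fold higher in PMLGH than in GelMA (0.51 ± 0.08, adjusted p = 0.0024). In that last comparison 12.3% of all genes tested were higher without overlap of the libraries. Its log2 fold change in PMLGH against Model lay above that of 97.9% of the genes tested, and by p-value it was number 52 of 16816. All 3 calls held under every alternative of scaling, filter, tool and left-out library that was run.

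The other 3 collagen-binding alpha subunits changed less or did not pass. Itga10, best known from chondrocytes, was at 25.3, 25.8 and 24.0 CPM in Model 1, 2 and 5, at 33.7, 34.8 and 34.99 CPM in GelMA 2, 3 and 4, and at 35.1, 38.8 and 30.1 CPM in PMLGH 2, 3 and 4. Every treated library lay above every Model library, and the GelMA range fell inside the PMLGH range. Itga10 rose by 0.47 ± 0.09 in PMLGH (edgeR adjusted p = 9.9e-04) and by 0.46 ± 0.09 in GelMA (adjusted p = 0.0015), both against Model. Of the 8 chondrocyte markers checked, 1 rose (Acan, log2 fold change 0.36) and 1 fell (Chad, -0.40) in PMLGH against Model. In GelMA against Model 3 rose, among them Acan (0.37). The summed level of the chondrocyte markers ran from 545 to 621 CPM in Model, 648 to 726 in GelMA and 546 to 621 in PMLGH. Their part in the change of Itga10 was not tested.

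Itga1, a subunit of smooth muscle cells, pericytes and fibroblasts that binds the collagen of basement membranes well, rose by a smaller amount. It was at 66.2, 69.7 and 72.4 CPM in Model 1, 2 and 5, at 76.1, 85.9 and 86.3 CPM in GelMA 2, 3 and 4, and at 82.8, 81.3 and 77.7 CPM in PMLGH 2, 3 and 4. The Model libraries lay below all others, and the treated groups overlapped. The log2 fold change was 0.21 ± 0.06 in PMLGH against Model (edgeR adjusted p = 0.021) and 0.25 ± 0.06 in GelMA against Model (adjusted p = 0.0099). The call in PMLGH was lost without Model 1, PMLGH 2 or PMLGH 3 and on both FPKM scales, and that in GelMA without GelMA 3 or GelMA 4 (adjusted p of 0.016 to 0.090 and of 0.0044 to 0.073 over the alternatives). Pelo, a gene of ribosome rescue that lies inside Itga1, had 723 to 953 counts per library and a log2 fold change of 0.05 ± 0.10 in PMLGH against Model (adjusted p = 0.76).

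Itga2, the subunit of the collagen receptor of platelets and of many epithelia, did not pass in any comparison. It was at 31.7, 26.02 and 29.7 CPM in Model 1, 2 and 5, at 26.3, 25.3 and 26.7 CPM in GelMA 2, 3 and 4, and at 30.3, 29.7 and 25.0 CPM in PMLGH 2, 3 and 4. All 3 ranges overlapped. The log2 fold change in PMLGH against Model was -0.04, with a 95% interval of -0.26 to 0.18, and in GelMA against Model it was -0.16, with an interval of -0.38 to 0.07. Without Model 2 the fall in GelMA against Model passed (-0.26, edgeR adjusted p = 0.034, with 0.034 to 0.59 over its alternatives). Of the 7 megakaryocyte and platelet markers tested, all 7 fell in PMLGH and 6 fell in GelMA, both against Model, and their summed level ran from 560 to 603 CPM in Model, 427 to 484 in GelMA and 458 to 464 in PMLGH. Their part in the values of Itga2 was not tested.

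The stretch of 250 bases before the start of transcription is shown for Itga11, which rose most, and Itga2, which did not pass, as the 2 ends of the response among the collagen-binding subunits. Both come from RefSeq, build GRCr8, at chr8:72041182-72041431 on the plus strand and chr2:48354510-48354759 on the minus strand, and are written 5′ to 3′ with each match to the GC box GGGCGG, on either strand, in capitals.
Itga11: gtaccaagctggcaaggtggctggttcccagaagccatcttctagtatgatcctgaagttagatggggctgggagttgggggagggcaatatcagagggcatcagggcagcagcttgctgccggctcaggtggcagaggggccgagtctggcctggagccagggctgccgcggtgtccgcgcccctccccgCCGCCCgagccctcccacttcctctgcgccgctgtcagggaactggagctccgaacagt
Itga2: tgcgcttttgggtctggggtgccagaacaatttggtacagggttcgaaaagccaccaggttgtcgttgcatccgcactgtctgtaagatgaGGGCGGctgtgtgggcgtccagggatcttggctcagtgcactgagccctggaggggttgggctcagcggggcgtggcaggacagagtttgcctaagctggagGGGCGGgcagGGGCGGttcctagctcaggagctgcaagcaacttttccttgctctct
The Itga11 stretch held 1 GC box and the Itga2 stretch held 3, where 30.5% of 33469 rat promoters of the same length held at least 1. Neither held a match, on either strand, to the AP-1 site TGANTCA, the TEAD site GGAATG or the TATA box TATAAA, which 6.34%, 12.1% and 12.9% of these promoters hold. The GC content was 65.2% for Itga11 and 60.0% for Itga2, against a median of 51.2% over all of them. Promoters were found for 9 of the members, and Ddr2 was not among them. These matches describe letters and are not measured binding sites.

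The make-up of the collagen-binding subunits shifted with the change in Itga11. FPKM, which divide by gene length, were used to compare one gene with another, so that orders and shares between genes rest on those lengths. Of the summed FPKM of Itga1, Itga2, Itga10 and Itga11, Itga11 took 20.6% ± 0.97 (SD over 3 libraries) in the Model group. Its share was 29.7% ± 1.3 in GelMA and 37.4% ± 0.44 in PMLGH. Itga2 took 20.7% ± 1.9, 14.0% ± 0.92 and 13.4% ± 0.49 in the same order. The sum itself was 19.0 ± 0.11 FPKM in Model, 25.9 ± 1.7 in GelMA and 28.8 ± 2.6 in PMLGH.

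**Figure D2:**
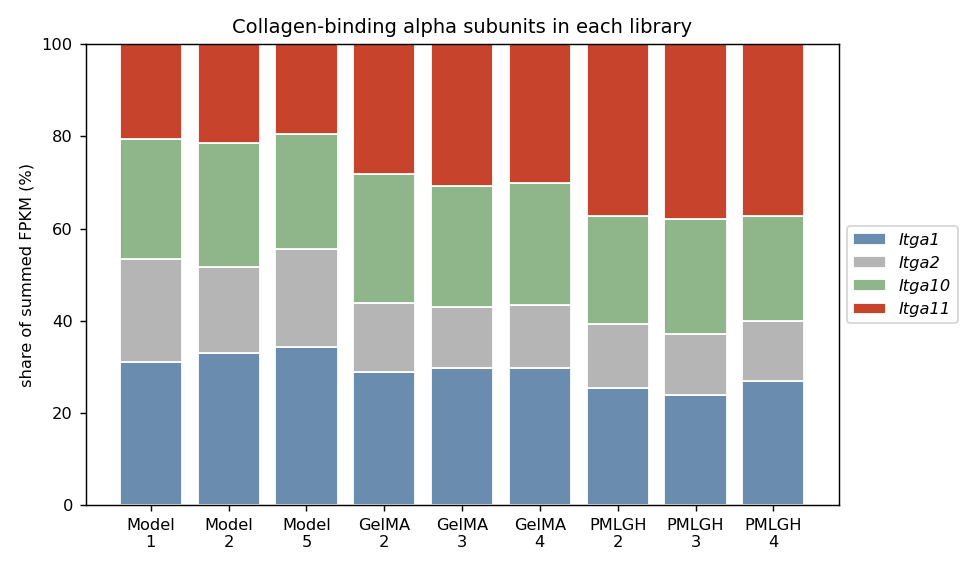
Share of Itga1, Itga2, Itga10 and Itga11 in their summed FPKM (vertical axis, percent, from 0) in each of the 9 libraries (horizontal axis). The share of Itga11 lies between 19.6% and 21.5% in Model, 28.1% and 30.7% in GelMA and 37.2% and 37.95% in PMLGH.

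In Model, Itga11 was the ninth of the 10 members by FPKM and overlapped Itga2, and in GelMA and PMLGH it was the fifth. Relative to Itga1, the FPKM of Itga11 were 0.666, 0.650 and 0.570 in Model 1, 2 and 5, 0.974, 1.03 and 1.01 in GelMA 2, 3 and 4, and 1.47, 1.59 and 1.38 in PMLGH 2, 3 and 4. By FPKM the 2 subunits thus changed places in order between Model and PMLGH, and they stood at about equal FPKM in GelMA. This order rests on the gene lengths used, 11016 bases for Itga1 and 5564 for Itga11. In CPM, Itga1 stayed above Itga11 in PMLGH (77.7 to 82.8 against 54.1 to 65.1) and in GelMA (76.1 to 86.3 against 37.4 to 44.8). The difference in the log2 ratio was 1.23 for PMLGH against Model, 0.68 for GelMA against Model and 0.55 for PMLGH against GelMA. Each had an exact two-sided permutation p of 0.1, the smallest that 3 against 3 libraries allow, and an adjusted p of 0.22 over the 24 ratio tests made. A ratio within a library does not depend on how libraries are scaled to each other.

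Itgb1, the beta subunit shared by all of the collagen-binding integrins, was the most abundant member, at 80.1 ± 2.9 FPKM in Model, 89.4 ± 1.9 in GelMA and 101 ± 1.2 in PMLGH. In TMM-scaled CPM it was at 311, 319 and 299.9 in Model 1, 2 and 5, at 341, 328 and 342 in GelMA 2, 3 and 4, and at 388, 390.1 and 387 in PMLGH 2, 3 and 4. The 3 groups did not overlap, and the PMLGH libraries lay close together. Itgb1 was 1.25-fold higher in PMLGH than in Model (log2 fold change 0.33 ± 0.05, edgeR adjusted p = 3.0e-04). In GelMA against Model the log2 fold change was 0.12 ± 0.05 and did not pass (adjusted p = 0.11, with 0.023 to 0.38 over its alternatives, of which library totals without TMM and both FPKM scales passed). Itgb1 rose by 0.21 ± 0.05 in PMLGH against GelMA (adjusted p = 0.040). That call was lost without Model 5, without any 1 of the 6 GelMA and PMLGH libraries, and under upper-quartile scaling, library totals and log2(FPKM + 0.1), with adjusted p of 0.0013 to 0.19 over the alternatives.

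The FPKM of Itga11 per FPKM of Itgb1 ran from 0.0477 to 0.0494 in Model, 0.0754 to 0.0938 in GelMA and 0.0960 to 0.115 in PMLGH, with no overlap between groups. The ratio of Itga1 to Itgb1 overlapped between Model and both treated groups, and was lower in PMLGH than in GelMA without overlap (0.0696 to 0.0741 against 0.0775 to 0.0909). The FPKM of Itgb1 were 1.90 ± 0.068 times the sum of the 6 alpha subunits in Model, 1.62 ± 0.11 times in GelMA and 1.73 ± 0.10 times in PMLGH.

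Itga5, Itgav and Itgb5 rose in both treated groups against Model. Itga5, the fibronectin receptor subunit, was at 46.6, 45.6 and 54.2 CPM in Model 1, 2 and 5, at 60.1, 63.4 and 61.6 CPM in GelMA 2, 3 and 4, and at 61.4, 65.9 and 66.1 CPM in PMLGH 2, 3 and 4. Model 5 was the highest Model library and still lay below every treated one. The log2 fold change was 0.40 ± 0.07 in PMLGH (edgeR adjusted p = 6.5e-04) and 0.34 ± 0.07 in GelMA (adjusted p = 0.0030), both against Model. PMLGH and GelMA differed by 0.06, with a 95% interval of -0.11 to 0.23.

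Itgav, the subunit that binds vitronectin, osteopontin and latent TGF-beta, was at 109, 101 and 90.2 CPM in Model 1, 2 and 5, at 112, 125 and 126 CPM in GelMA 2, 3 and 4, and at 131, 128 and 113 CPM in PMLGH 2, 3 and 4. Model 1 and GelMA 2 lay next to each other, and no libraries crossed between Model and the treated groups. Itgav rose by 0.31 ± 0.08 in PMLGH (edgeR adjusted p = 0.0087) and by 0.28 ± 0.08 in GelMA (adjusted p = 0.019), both against Model. The first call was lost without Model 5 or PMLGH 2 and the second without Model 5, GelMA 3 or GelMA 4, with adjusted p of 0.0035 to 0.069 and of 0.011 to 0.12 over the alternatives.

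Itgb5, which pairs with Itgav, was at 108, 113 and 104 CPM in Model 1, 2 and 5, at 124, 135 and 133 CPM in GelMA 2, 3 and 4, and at 139, 138 and 142 CPM in PMLGH 2, 3 and 4. The groups formed separate ranges in the order Model, GelMA, PMLGH. Itgb5 rose by 0.37 ± 0.06 in PMLGH (edgeR adjusted p = 2.0e-04) and by 0.27 ± 0.06 in GelMA (adjusted p = 0.0029), both against Model. The difference of 0.10 ± 0.06 between PMLGH and GelMA did not pass (adjusted p = 0.42). The ratio of Itgav to Itgb5 in FPKM had geometric means of 0.471 in Model, 0.475 in GelMA and 0.452 in PMLGH, and the ranges of the 3 groups overlapped.

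Both discoidin domain receptors rose in both treated groups. Ddr2 was at 46.7, 50.4 and 48.7 CPM in Model 1, 2 and 5, at 62.7, 74.6 and 73.6 CPM in GelMA 2, 3 and 4, and at 76.9, 75.6 and 68.4 CPM in PMLGH 2, 3 and 4. The Model libraries lay well below the rest, and the treated groups overlapped. Ddr2 was 1.51-fold higher in PMLGH than in Model (log2 fold change 0.60 ± 0.07, edgeR adjusted p = 3.4e-05) and 1.45-fold higher in GelMA than in Model (0.53 ± 0.07, adjusted p = 1.3e-04). Both calls held under every alternative run, and PMLGH and GelMA differed by 0.07, with a 95% interval of -0.11 to 0.25.

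Ddr1, the form best known from epithelia and also made by some white cells, was the least abundant member. It was at 10.3, 8.56 and 10.6 CPM in Model 1, 2 and 5, at 12.7, 12.9 and 15.5 CPM in GelMA 2, 3 and 4, and at 13.0, 17.6 and 14.9 CPM in PMLGH 2, 3 and 4. No treated library came down to the Model range. The log2 fold change was 0.62 ± 0.13 in PMLGH (edgeR adjusted p = 0.0028) and 0.48 ± 0.13 in GelMA (adjusted p = 0.018), both against Model, and the call in GelMA was lost without Model 2 or GelMA 4 (adjusted p of 0.0091 to 0.11 over the alternatives). Of the 7 epithelial markers found, Cdh1 made up nearly all of the summed level, with means of 131 CPM in Model, 100.1 in GelMA and 97.5 in PMLGH, and it fell in both treated groups. The other epithelial markers, keratins and Epcam, stood between 0 and 4.29 CPM in every library. Of the 5 markers tested, 2 fell and none rose in PMLGH against Model, and 1 rose and 1 fell in GelMA against Model. The 1 that rose, Krt14, was at 0, 0.55 and 4.29 CPM in GelMA 2, 3 and 4. Whether Cdh1 stands for epithelial cells in this tissue, and their part in the values of Ddr1, was not tested. The FPKM of Ddr2 were on geometric average 2.59 times those of Ddr1 in Model, 2.68 times in GelMA and 2.55 times in PMLGH, with overlap between the groups.

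**Figure D3:**
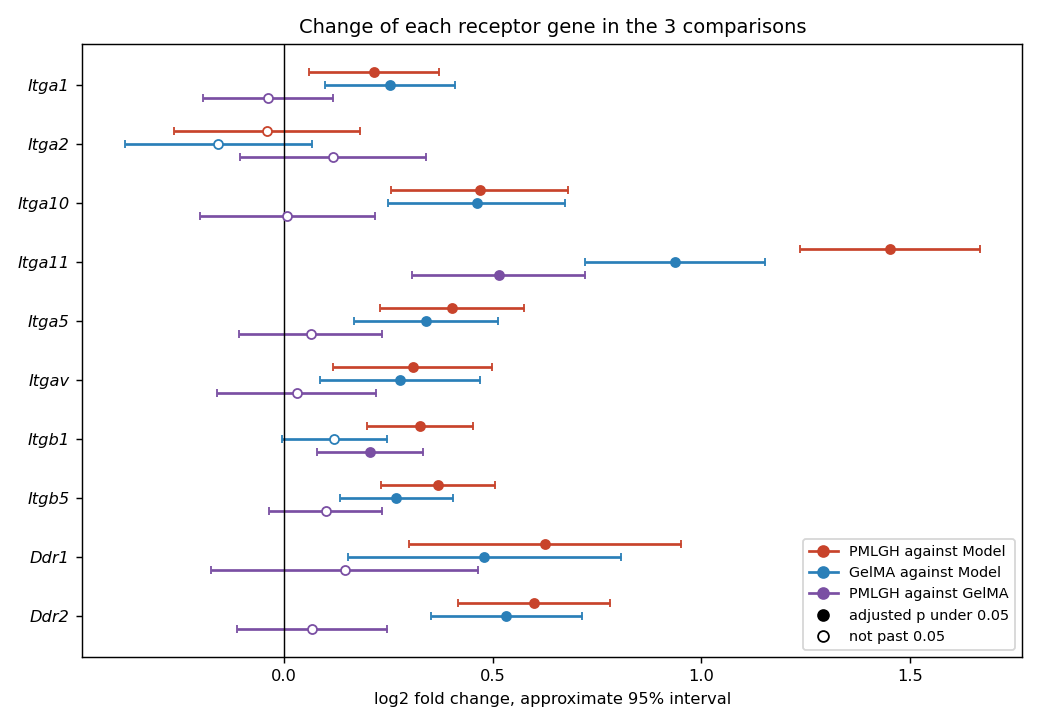
Log2 fold change of each receptor gene (horizontal axis) with its approximate 95% interval for both treated groups against Model and for PMLGH against GelMA; filled points passed at an adjusted p under 0.05. Itga11 lies furthest to the right in all 3 comparisons, and only Itga11 and Itgb1 have a filled point in PMLGH against GelMA.

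By FPKM the members kept a similar order in all groups. Itgb1, Itgb5, Itgav and Itga5 took the first 4 places in Model, GelMA and PMLGH, with no overlap between neighbours. In Model, Itga1 followed at 6.23 ± 0.30 FPKM, Ddr2 at 5.13 ± 0.24 and Itga10 at 4.91 ± 0.21, of which Ddr2 and Itga10 overlapped. In GelMA, Itga11, Ddr2, Itga1 and Itga10 lay between 6.95 and 7.69 FPKM on average, and each overlapped the next. In PMLGH, Itga11 stood alone at 10.8 ± 1.1 FPKM, above the overlapping Ddr2, Itga1 and Itga10. Ddr1 was last in every group, and in PMLGH it overlapped Itga2.

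Across the 9 libraries the members other than Itga2 varied together. Pearson's r between the log2 CPM of 2 members had a median of 0.85 over the 36 pairs without Itga2, with a range of 0.56 to 0.97, and a median of -0.19 over the 9 pairs with Itga2. These correlations describe 9 libraries in 3 groups, and no correlation within groups was computed. Outside the members, the genes whose log2 CPM followed Itga11 most closely were Clmp, a cell adhesion protein (r = 0.998), Svep1, a large matrix protein (r = 0.995), and Creb3l1, a transcription factor that drives collagen genes in osteoblasts (r = 0.995). The genes closest to Ddr2 were Ptpn13, Scarf2 and Adgrd1 (r = 0.987, 0.985 and 0.984), and those closest to Itga10 were Mme, Pald1 and Mid1 (r = 0.993, 0.980 and 0.980). Itga5 was followed by Ehd2 and Cav1, both of caveolae, and by Cdh13 (r = 0.991, 0.985 and 0.989), and Itgb1 by Apol11a, Lgmn and Gusb (r = 0.993, 0.988 and 0.987). For Itga1 they were Sgcd (r = 0.981), Chl1 and Ttc37, for Itgav Vgll4, Lats1 and Armcx6 (0.961 to 0.981), for Itgb5 Zfp862, Tubb2b and Olfml3 (0.989 to 0.992), for Ddr1 Flt3, Col5a3 and Tiam2 (0.961 to 0.964), and for Itga2, with the lowest values of all members, Fam131a, Cabp1 and Zfp958 (0.911 to 0.942). The search covered 12760 genes whose mean was 1 CPM or more.

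Markers of mesenchymal cells moved in the same direction as the receptors. Of 10 such markers, among them Pdgfra, Pdgfrb, Thy1 and Prrx1, 9 rose in PMLGH and 9 rose in GelMA against Model, with medians of 0.74 and 0.67. Their summed level was 377 to 408 CPM in Model, 560 to 625 CPM in GelMA and 609.8 to 677 CPM in PMLGH. Mural cell markers rose as well (9 and 8 of 10), and so did osteoblast markers (8 of 8 in both) and endothelial markers (6 and 5 of 9). Set against the mean log2 CPM of the mesenchymal markers in the same library, Itga11 was the 1 member with a difference above 0, at 0.66 in PMLGH and 0.24 in GelMA against Model. The differences of the other 9 members were below 0 in both comparisons, from -0.17 for Ddr1 to -0.83 for Itga2 in PMLGH. The exact two-sided permutation p was 0.1 for Itga11 in both comparisons, the smallest possible, with an adjusted p of 0.17 over 30 such tests. The p was also 0.1 for the others, except for Ddr1 (exact permutation p of 0.4 in PMLGH and 0.2 in GelMA) and for Ddr2 in GelMA (-0.16, exact permutation p of 0.2), so none passed after adjustment.

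**Figure D4:**
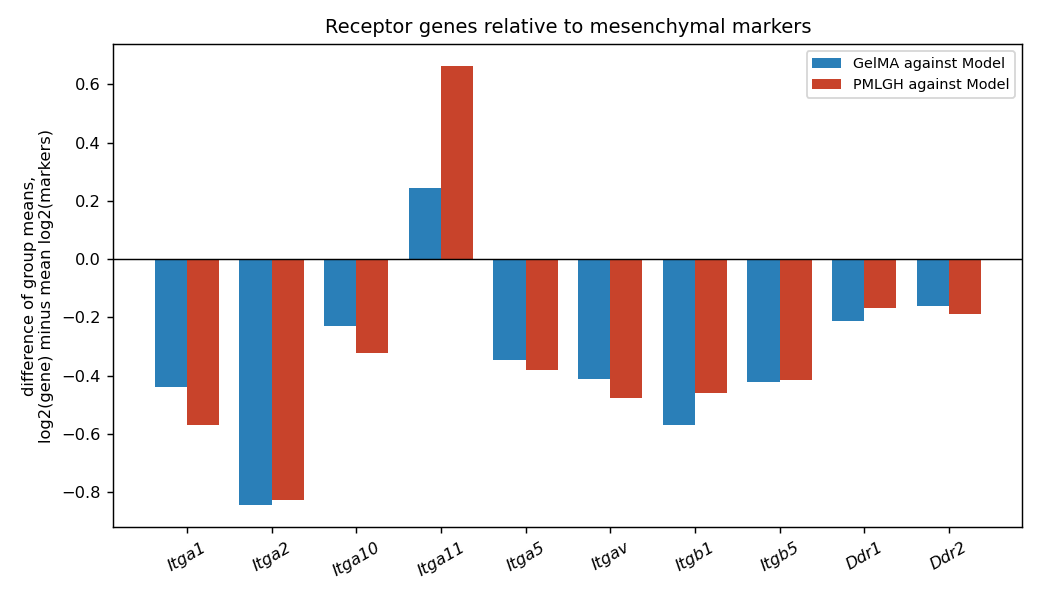
Difference between group means of the log2 level of each receptor gene minus the mean log2 level of 10 mesenchymal markers in the same library (vertical axis), for GelMA against Model and PMLGH against Model. A value above 0 is a larger log2 difference than the mean of the markers; Itga11 is above 0 (0.24 and 0.66) and the other 9 genes are below 0.

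Skeletal muscle markers moved with the groups too, and most in GelMA. The summed level of 12 muscle markers was 640 to 916 CPM in Model, 3001 to 3719 CPM in GelMA and 1035 to 1421 CPM in PMLGH, and 12 of 12 rose in GelMA against Model. Red cell RNA moved the opposite way: globin genes took 9.54% to 10.1% of the counts in Model and 6.87% to 8.07% in the treated libraries. The 8 erythroid markers summed to 8789 to 10920 CPM in Model, 7273 to 7889 CPM in GelMA and 7019 to 7769 CPM in PMLGH, and 8 of 8 fell in both treated groups. With the globin and mitochondrial genes left out, 9 members passed in PMLGH and 8 in GelMA against Model. That setting keeps the other red cell genes and the mix of tissues, so it cannot decide the part of red cells. Macrophage markers ran from 1158 to 1342 CPM in Model, 1199 to 1291 in GelMA and 1461 to 1519 in PMLGH. The part of these tissues and cells in the receptor changes was not tested.

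The collagens that these receptors bind had a larger median change than the receptors. Of 17 collagen genes, 14 rose in PMLGH against Model and none fell, with a median log2 fold change of 1.152 (the 10 receptors had 0.39). In both comparisons with Model, no collagen gene was lower at an unadjusted p under 0.05 in edgeR or by an adjusted p in DESeq2. In GelMA against Model 14 rose, with a median of 0.87, and in PMLGH against GelMA 6 rose, with a median of 0.21. The share of all genes that rose was 15.7% in PMLGH and 12.7% in GelMA, both against Model, and 1.8% in PMLGH against GelMA. Some collagen genes went down in PMLGH against GelMA. There, 11 were higher and 3 lower at an unadjusted p under 0.05 in edgeR, and DESeq2 called 8 higher and 2 lower. Col3a1, the fibrillar collagen of healing tissue, rose by 2.03 ± 0.09 in PMLGH against Model, Col5a1, which starts fibrils, by 1.44 ± 0.08, and the basement membrane chains Col4a1 and Col4a2 by 1.39 ± 0.07 and 1.26 ± 0.07. Col1a1, which makes the bulk of the collagen in bone, rose by 1.08 ± 0.08. Among the members, Itga11 alone had a log2 fold change above 1 in PMLGH against Model.

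Ligands of Itga5 and Itgav gave a mixed picture. Of 20 such genes, 10 rose and 1 fell in PMLGH against Model, where 15.7% of all genes tested rose and 11.9% fell. In GelMA against Model 12 rose and 2 fell, where 12.7% of all genes rose and 9.88% fell. In PMLGH against GelMA 6 rose, 1 fell and 13 did not pass, with a median of 0.11, where 1.8% of all genes rose and 1.64% fell. Ltbp1, which binds latent TGF-beta to the matrix, fell in both treated groups against Model (-0.26 ± 0.06 in PMLGH). It was named after its value was seen, like Thbs1, which fell in GelMA against Model (-0.20 ± 0.05). Postn, periostin of the periosteum, rose by 2.62 ± 0.13 in PMLGH against Model, Ccn1 by 1.18 ± 0.10, Fbn1, fibrillin of microfibrils, by 0.90 ± 0.07 and Fbln5, a fibulin of elastic fibres, by 0.89 ± 0.09. Fn1, the fibronectin that Itga5 binds, had log2 fold changes of 0.22 ± 0.09 in PMLGH and 0.13 ± 0.09 in GelMA against Model and did not pass (edgeR adjusted p = 0.066 and 0.30).

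The rest of the integrin family changed less uniformly. Of 18 other integrin genes, 8 rose and 1 fell in PMLGH against Model, where 15.7% of all genes tested rose and 11.9% fell. In GelMA against Model 4 rose and 2 fell, where 12.7% of all genes rose and 9.88% fell. None passed in PMLGH against GelMA, where the median was 0.05. In that last comparison 6 of the 18 were higher at an unadjusted p under 0.05 in edgeR, and 1 rose in DESeq2. Itga2b, the alpha subunit of the platelet fibrinogen receptor, fell by 0.34 ± 0.06 in PMLGH and by 0.35 ± 0.06 in GelMA against Model. Itgb3, its partner and also the partner of Itgav on osteoclasts, had a log2 fold change of -0.09 ± 0.06 in PMLGH against Model and did not pass. Itgal, of lymphocytes, and Itgam, of neutrophils and macrophages, rose by 0.53 ± 0.09 and 0.59 ± 0.15 in PMLGH against Model, and in GelMA against Model they did not pass. Of the marker lists, 6 of 10 T and NK cell markers, 7 of 10 macrophage markers and 2 of 7 neutrophil markers rose in PMLGH against Model, and their part in these integrin genes was not tested. Itga9, a receptor subunit for tenascin and osteopontin, rose by 0.38 ± 0.08 in PMLGH and by 0.42 ± 0.08 in GelMA.

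Of 6 other collagen receptors, 3 rose in PMLGH against Model and 1 rose in GelMA against Model, where 15.7% and 12.7% of all genes tested rose. Mrc2, the endocytic receptor with which mesenchymal cells take up collagen fragments, rose by 0.81 ± 0.07 in PMLGH and 0.69 ± 0.07 in GelMA. Oscar, a collagen receptor of osteoclasts, rose by 1.09 ± 0.18 and Mrc1, the mannose receptor of macrophages, by 0.32 ± 0.08 in PMLGH against Model. Of 7 osteoclast markers, 6 rose in the same comparison, and their part in the change of Oscar was not tested. Adgrg1, an adhesion receptor that binds collagen III, had a log2 fold change of 0.08 ± 0.07 and did not pass.

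Inside the cell, the genes that link integrins to actin and to signalling changed in part. Of 10 genes that switch integrins on or off, 2 rose and 2 fell in PMLGH against Model, with a median of 0.01. Among all genes tested, 15.7% rose and 11.9% fell in that comparison. Fermt2, the kindlin of connective tissue, rose by 0.51 ± 0.06, and Fermt3, the kindlin of blood cells, fell by 0.18 ± 0.06. Sharpin, an inhibitor of integrin activation, fell by 0.26 ± 0.07. Tln2 rose by 0.47 ± 0.11, and Tln1, the common talin that activates integrins, had a log2 fold change of -0.04 ± 0.07 and did not pass. Of 25 scaffold genes of focal adhesions, 8 rose and 1 fell. The parvin gene Parva rose by 0.87 ± 0.08, and the 1 that fell was its relative Parvb (-0.35 ± 0.06), named after its value was seen. The actin regulators Enah, Palld and Lpp rose by 1.00 ± 0.10, 0.57 ± 0.07 and 0.49 ± 0.07. Of 20 signalling genes, 8 rose and none fell, with a median of 0.15, and DESeq2 called 6 higher and 0 lower. The adaptor Bcar1 rose by 0.78 ± 0.09, Dock1, which activates Rac, by 0.56 ± 0.08, its partner Elmo1 by 0.39 ± 0.10, the adaptor Shc1 by 0.26 ± 0.06, and Ptk2, the focal adhesion kinase, by 0.21 ± 0.07 (edgeR adjusted p = 0.031). No gene of these 3 lists passed in PMLGH against GelMA, where the medians were 0.01, 0.04 and 0.06. At an unadjusted p under 0.05 in edgeR, 2, 5 and 1 of their genes differed there, and DESeq2 called 0, 1 and 0.

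Of 9 genes linked to discoidin receptor signalling, 5 rose in PMLGH and 4 rose in GelMA, both against Model, and 2 rose in PMLGH against GelMA. The shares of all genes that rose were 15.7%, 12.7% and 1.8% in the same order. Ptpn11, Nck1, Nck2 and Myh9 did not pass in PMLGH against Model and were named after their values were seen. Their log2 fold changes there were -0.02, 0.08, -0.10 and 0.16. The matrix proteases Mmp2 and Mmp14 rose by 1.66 ± 0.06 and 1.63 ± 0.08 in PMLGH against Model, and by 0.51 ± 0.06 and 0.41 ± 0.08 in PMLGH against GelMA. Snai1, a transcription factor that collagen signals through Ddr2 stabilise, rose by 0.66 ± 0.09 in PMLGH against Model. Mmp13, a collagenase induced through Ddr2, rose by 0.60 ± 0.11. Runx2, the osteoblast factor that Ddr2 acts on, rose by 0.27 ± 0.07 in PMLGH against Model (edgeR adjusted p = 0.016). The part of Ddr1, of Ddr2 and of the cells present in these changes was not tested.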

How the data were processed

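Total RNA of 9 tibia libraries was analysed from 2 tables. The deposited counts are raw whole numbers per gene symbol. The authors' FPKM follow from these counts, the library totals and 1 length per gene, and so add no measurement. DESeq2 and R 3.2.0 stand in the submitters' processing notes without a role. Aligner, build and strand were not given in the sources used here. Members and lists were chosen with earlier results of these data known.

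After filterByExpr (16816 genes) and TMM scaling, edgeR 4.0.16 in R 4.3.3 fitted group means by quasi-likelihood over the 9 libraries together (6 residual degrees of freedom, two-sided, Benjamini-Hochberg over all genes). The SE is the log2 fold change over the square root of F. Ratios were compared by exact permutation. The code was tested on simulated counts. Alternatives used other scalings and filters, DESeq2 1.42.0, limma 3.58.1 and left-out libraries. Named are all members, up to 4 genes of smallest p per list in PMLGH against Model, Fn1, Col1a1, Itgb3, Itgam, Ptk2, Tln1, Mrc2, Runx2, and the genes most alike to a member.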

Additional observations from a re-analysis of the deposited data

How the results depend on the processing

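Of the 19 member changes that passed, 13 passed under every alternative (21 for each comparison with Model, 22 for PMLGH against GelMA), and no called change reversed. The others are Itga1 and Itgav against Model in both treated groups, Ddr1 in GelMA and Itgb1 in PMLGH against GelMA. The cause of these losses was not tested. The number of members that rose ran from 7 to 9 in PMLGH against Model and from 5 to 9 in GelMA against Model. In the latter it was 5 to 8 with 1 library left out, the lowest without GelMA 4, and without Model 2 the number that fell in GelMA was 1 instead of 0. In PMLGH against GelMA 1 member (Itga11) rose in place of 2 under upper-quartile scaling, library totals and log2(FPKM + 0.1), and the number ran from 1 to 2 with 1 library left out.

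Counts over all genes moved more. In PMLGH against GelMA, 303 genes rose and 275 fell. The numbers were 489 and 420 with DESeq2, 590 and 469 with only the 2 groups, and 577 and 460 with a replicate block. Higher genes numbered 455 with no filter, 185 with log2(FPKM + 1) and 168 with log2(FPKM + 0.1). With 1 library left out, 143 to 586 rose (fewest without PMLGH 3, most without Model 2) and 144 to 464 fell (fewest without GelMA 4, most without Model 2). In GelMA against Model 1661 fell, 1107 and 1103 on the FPKM scales and 1035 to 2468 with 1 library left out, the lowest without Model 1. In PMLGH against Model 1994 fell, and 1268 to 2795 with 1 library left out, the lowest without PMLGH 3. Between GelMA and PMLGH libraries of the same number, deviations from the group means had r of 0.014, 0.027 and -0.0083. The labels do not say whether these libraries were paired, and these values cannot decide it. The replicate block left both member calls of PMLGH against GelMA in place.

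Small changes that did not pass turned sign. Itga10 in PMLGH against GelMA was 0.0070, and -0.012 under upper-quartile scaling, -0.017 with library totals, -0.00037 with voom, -0.021 and -0.024 on the FPKM scales, -0.00038 with the block and -0.082 to 0.099 with 1 library left out. With 1 library left out, Itga2 in PMLGH against Model ran from -0.15 to 0.041, and in PMLGH against GelMA Itgav ran from -0.024 to 0.095 and Ddr2 from -0.010 to 0.12. The log2 ratio of Itgav to Itgb5 ran from -0.11 to 0.019 (PMLGH against Model), -0.032 to 0.076 (GelMA against Model) and -0.12 to 0.0083 (PMLGH against GelMA). That of Itgav to Itga5 ran from -0.21 to 0.031 (GelMA against Model) and -0.11 to 0.053 (PMLGH against GelMA), and that of Ddr2 to Ddr1 from -0.16 to 0.10, -0.036 to 0.17 and -0.21 to 0.020. Against the mesenchymal markers in PMLGH against GelMA, Itga2 ran from -0.026 to 0.065, Itga5 from -0.12 to 0.041, Itgb5 from -0.079 to 0.049, Ddr1 from -0.030 to 0.19 and Ddr2 from -0.065 to 0.038. Against osteoblast markers, and without Twist2, a choice made after seeing the data, Itga11 alone still had a difference above 0 in both comparisons with Model. The scaling moved the median of all genes by at most 0.038. The share of higher genes among those called in GelMA against Model was 56.3%, and 66.6% with library totals.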

Other observations

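Within each treated group the lowest values of most members came from 1 library. GelMA 2 was the lowest GelMA library for 8 of the 10 members, and PMLGH 4 was the lowest PMLGH library for 7 of the 10. The members other than Itga2 varied together, so these are not separate observations. The same count over all genes is not given here, so these counts cannot be called particular to the members. In GelMA 2 and PMLGH 4 the globin genes took 8.03% and 8.07% of the counts, the highest share in either treated group, where the other treated libraries had 6.87% to 7.23%. For Itga11 the lowest library of each treated group was the same one, GelMA 2 with 37.4 CPM and PMLGH 4 with 54.1 CPM, while its share of the collagen-binding alpha subunits in PMLGH 4 was 37.2%, as in PMLGH 2. In the Model group, Model 1, 2 and 5 were the lowest for 2, 3 and 5 of the 10 members, with globin shares of 10.1%, 9.54% and 10.0%. The part of red cell RNA in these lowest values was not tested.

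Of the 20 ligand genes of Itga5 and Itgav, 6 rose in PMLGH against GelMA, 1 fell and 13 did not pass. Of all genes tested, 1.8% rose and 1.64% fell there. The rises were 0.90 for Postn, 0.81 for Ccn1, 0.45 for Ccn2, 0.42 for Tgfbi, 0.40 for Fbln5 and 0.30 for Thbs1, the thrombospondin gene. The 1 that fell was Dmp1, a matrix protein of osteocytes, which had log2 fold changes of 1.02 in GelMA against Model, -0.08 in PMLGH against Model and -1.11 ± 0.16 in PMLGH against GelMA (edgeR adjusted p = 0.0010). Ccn2, Tgfbi, Thbs1 and Dmp1 were named after their values were seen.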
